A study of Mus musculus with 19 samples.

Results

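A set of 10 genes that developing and mature neutrophils use for their granules and cytosol was followed through 19 RNA sequencing libraries from the cochlea, the coiled hearing organ of mice. They were taken by symbol from the deposited gene table: S100a8, S100a9, Ngp, Ltf, Camp, Elane, Mpo, Mmp8, Retnlg and Lcn2. Of these 10 genes, 9 are described, out of 18639 in the table, and Mpo was not analysed here. All 9 passed the filter on low values, which asked for 1 normalized read or more in 2 or more of the 14 sorted libraries of the whole cochlea.

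All mice were heterozygous for a Cx3cr1 knock-in allele (CX3CR1 GFP/+), in which green fluorescent protein (GFP) takes the place of 1 copy of a chemokine receptor gene. Cells were sorted by GFP, and the positive cells are called macrophages and the negative cells nonmacrophages. Monocytes also use Cx3cr1, so the positive gate does not separate them from macrophages. The young animals were aged 1.5 months and the old ones 12 to 14 months. From the whole cochlea came 4 old macrophage libraries (replicates 1, 7, 12 and 17), 2 young macrophage libraries (9 and 15), 4 old nonmacrophage libraries (10, 11, 18 and 19) and 4 young nonmacrophage libraries (2, 5, 6 and 14). Single young libraries came from auditory nerve macrophages (3) and nonmacrophages (8), from lateral wall macrophages (4) and nonmacrophages (16), and from an unsorted cochlea (13). Each isolate came from 1 mouse, per the labels. The cochlea lies in bone that holds marrow, and whether blood was washed out before the cells were dissociated is not given in the sources used here.

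Neutrophils are made in the bone marrow and fill their granules in sequence. Promyelocytes make the azurophil granules, which hold the serine proteases encoded by Elane (neutrophil elastase) and Prtn3 (proteinase 3). Myelocytes and metamyelocytes then make the specific granules, which hold lactoferrin (Ltf), the cathelicidin peptide (Camp), neutrophilic granule protein (Ngp), lipocalin 2 (Lcn2) and the collagenase Mmp8. The calcium-binding proteins S100a8 and S100a9 pair with each other as calprotectin, fill much of the neutrophil's cytosol and are also made by monocytes. Retnlg encodes a secreted resistin-like protein of marrow and blood neutrophils. Lcn2 is not restricted to neutrophils, since epithelia and other cells induce it in inflammation.

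The libraries held 20.6 to 71.6 M (mega) reads in genes. The old ones held 50.6 to 71.6 M and the young ones sorted from whole cochleae 24.9 to 35.1 M, save nonmacrophage 14 with 60.2 M, so depth nearly followed age. Values are normalized reads, the reads of a gene divided by 1 factor per library. A gene with no read could have had up to 3 reads in a library, which is 1.38 to 5.33 normalized reads. All 10 genes of a macrophage marker list were higher in macrophages (median log2 difference 8.89, limma), with sums of 184794 to 305948 normalized reads in old and 697267 to 944110 in young macrophages. A list of 6 genes of spiral ganglion neurons had 5 members higher in macrophages too (median 4.38), with sums of 221680 to 252191 in old and 128742 to 214464 in young macrophages, against 6345 to 11587 in old and 4063 to 26481 in young nonmacrophages. In this comparison of the sorts over both ages, 13.6% of all genes were called higher. The part of neuronal RNA in the results was not tested. Of the libraries, 2 stood apart before any comparison. Young macrophage 9 had reads in 11652 genes, the fewest of all libraries. Young nonmacrophage 5 had reads in 15433 genes, between the 14399 and 17200 of replicates 2 and 14, but in only 3 of the 9 granule and neutrophil genes. The comparisons between groups that use it are also given without it, a choice made after the data were seen. It was picked by the low values of the 9 genes themselves. Leaving it out therefore raises their young nonmacrophage levels by choice, and calls made without it are descriptions and no further support.

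The genes were plentiful in GFP-negative cells and scarce in whole-cochlea macrophages. Summed over the 9 genes, young nonmacrophages 2, 5, 6 and 14 held 31146, 116, 48375 and 19718 normalized reads. Old nonmacrophages 10, 11, 18 and 19 held 5361, 1928, 12275 and 3885. Old macrophages 1, 7, 12 and 17 held 101, 176, 293 and 104, and young macrophages 9 and 15 held 3.51 and 894. Apart from young nonmacrophage 5, every whole-cochlea nonmacrophage library was above every whole-cochlea macrophage library. The largest sum of all, 143378, was in lateral wall nonmacrophages, where the 9 genes took 0.437% of the reads in genes (95% Wilson interval 0.434 to 0.439%, counting error only). The unsorted cochlea held 1717. In these bulk libraries, fewer cells of a type and less RNA per cell cannot be told apart.

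**Figure D1:**
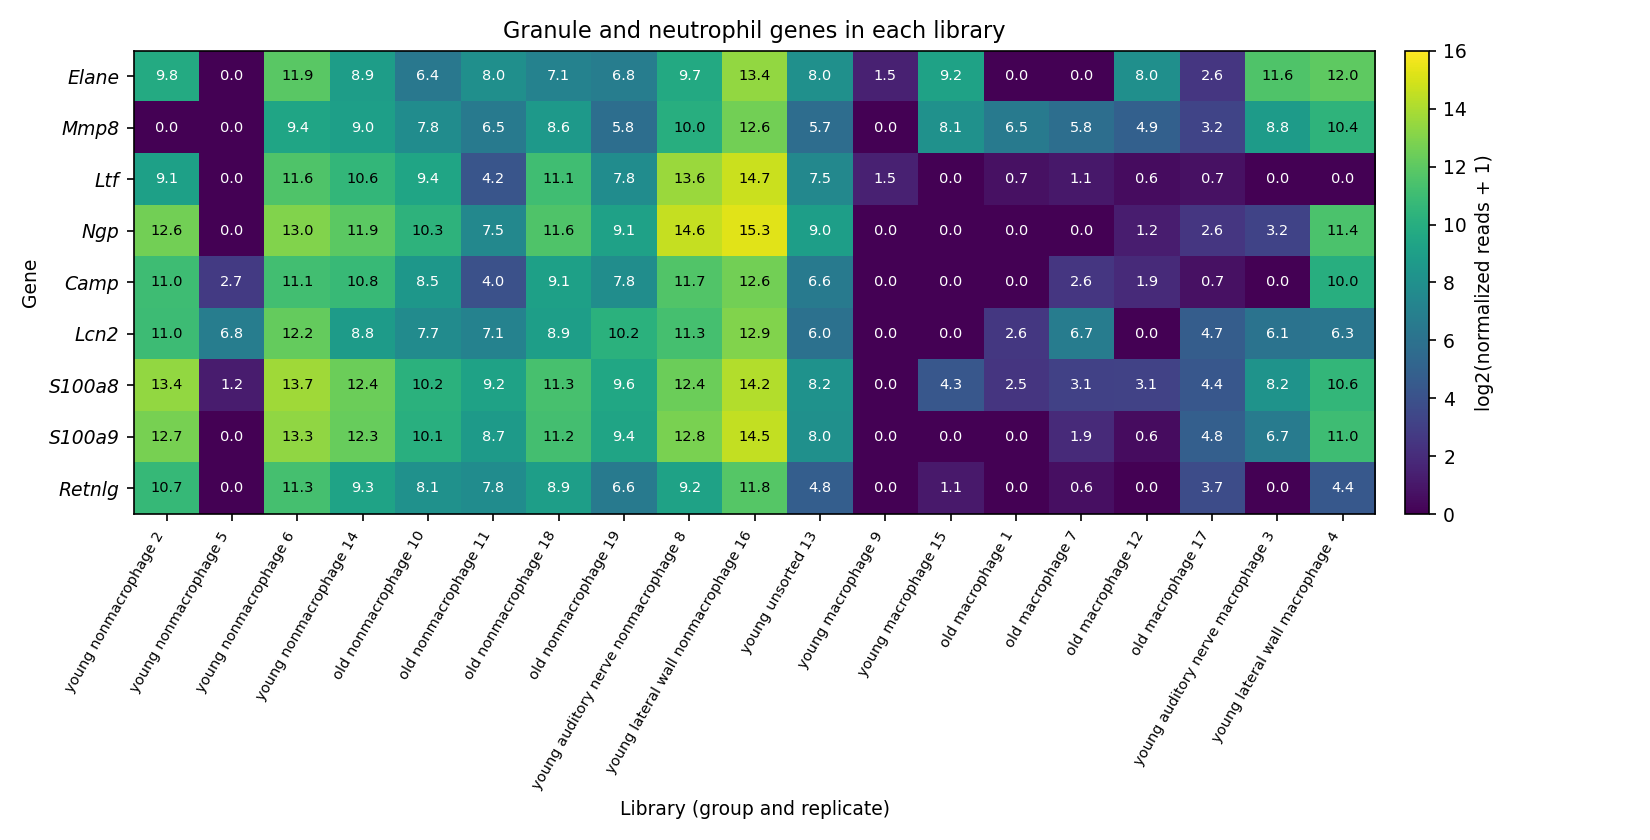
Level of each of the 9 genes (rows) in each of the 19 libraries (columns), as log2(normalized reads + 1) in colour and in print. Most values of the nonmacrophage libraries on the left are high, while young nonmacrophage 5 is low in most genes. Also low are Mmp8 in young nonmacrophage 2 (0.00) and Camp and Ltf in old nonmacrophage 11 (3.95 and 4.24). The 3 highest macrophage values outside the lateral wall are Elane in the auditory nerve (11.61) and in young macrophage 15 (9.24) and Mmp8 in the auditory nerve (8.81).

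Among the specific granule genes Ngp, Ltf, Camp and Lcn2 were lower in macrophages over both ages (limma), and Mmp8 was not called. Ngp stood at 1298, 175, 3072 and 563 normalized reads in old nonmacrophages 10, 11, 18 and 19, and at 0, 0, 1.38 and 4.88 in old macrophages 1, 7, 12 and 17. Its young values were 6253, 0, 7944 and 3915 in nonmacrophages 2, 5, 6 and 14, and both macrophage libraries were at 0. The old groups did not overlap, and the young groups touched only through the library at 0. The mean of old nonmacrophages was 816-fold that of old macrophages. Against a floor of 3 reads per library, young nonmacrophages were at least 1040-fold higher than young macrophages, or at least 1390-fold without nonmacrophage 5.

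Ltf, the iron-binding lactoferrin gene, stood at 680, 17.9, 2225 and 219 in old nonmacrophages 10, 11, 18 and 19. In old macrophages 1, 7, 12 and 17 it stood at 0.641, 1.09, 0.461 and 0.61, which is 5 reads over the 4 libraries together. In young nonmacrophages 2, 5, 6 and 14 it had 542, 0, 3118 and 1551, and young macrophages 9 and 15 had 1.76 and 0. Ltf was therefore high in 3 of 4 libraries of each nonmacrophage group and close to nil in all 6 macrophage libraries, with old nonmacrophage 11 and young nonmacrophage 5 as the low ones.

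Camp, which encodes the antimicrobial cathelicidin, stood at 351, 14.5, 541 and 229 in old nonmacrophages 10, 11, 18 and 19 and at 0, 4.9, 2.76 and 0.61 in old macrophages 1, 7, 12 and 17. The values in young nonmacrophages 2, 5, 6 and 14 were 2052, 5.45, 2255 and 1799, and it was at 0 in both young macrophage libraries. The groups did not overlap at either age. In the young the gap was at the floor, with 4 reads (5.45) in nonmacrophage 5 against up to 5.27 allowed by a 0 in macrophage 9. With all young libraries, Camp and Lcn2 were the only ones of the 9 genes whose young groups kept apart.

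Lcn2, whose product binds the iron-carrying siderophores of bacteria, stood at 213, 138, 490 and 1206 in old nonmacrophages 10, 11, 18 and 19. Old macrophages 1, 7, 12 and 17 had 5.13, 106, 0 and 25.6. The young nonmacrophages had 2032, 109, 4720 and 444 in replicates 2, 5, 6 and 14, and both young macrophage libraries were at 0. It was the least separated of the 7 called genes in the old cochlea, where macrophage 7 came close to nonmacrophage 11. In young nonmacrophage 5 Lcn2 made up most of the little that was left of the 9 genes.

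Mmp8, the neutrophil collagenase gene, was less separated between the sorts than the other specific granule genes. It stood at 221, 92.9, 381 and 54.9 in old nonmacrophages 10, 11, 18 and 19 and at 91.1, 53.3, 29 and 8.54 in old macrophages 1, 7, 12 and 17. Young nonmacrophages 2, 5, 6 and 14 had 0, 0, 682 and 518, and young macrophages 9 and 15 had 0 and 271. The groups overlapped at both ages, though the nonmacrophage mean was higher, 4.12-fold in the old and 2.21-fold in the young. Young nonmacrophage 2 had no Mmp8 read although its Ngp was at 6253.

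Elane, the azurophil member, also overlapped between the sorts. It stood at 84.9, 254, 136 and 111 in old nonmacrophages 10, 11, 18 and 19 and at 0, 0, 251 and 4.88 in old macrophages 1, 7, 12 and 17. In young nonmacrophages 2, 5, 6 and 14 Elane had 889, 0, 3777 and 473, and young macrophages 9 and 15 had 1.76 and 603. In each macrophage group 1 library (old 12 and young 15) was as high as the nonmacrophages, and the others were near 0.

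Of the cytosolic pair, S100a8 stood at 1165, 595, 2550 and 751 in old nonmacrophages 10, 11, 18 and 19. In old macrophages 1, 7, 12 and 17 it stood at 4.49, 7.62, 7.83 and 19.5. Young nonmacrophages 2, 5, 6 and 14 had 11007, 1.36, 13203 and 5321, and young macrophages 9 and 15 had 0 and 19.2. S100a8 had a low but measurable level in every old macrophage library, with 70 reads over the 4 together.

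S100a9 stood at 1079, 422, 2390 and 655 in old nonmacrophages 10, 11, 18 and 19 and at 0, 2.72, 0.461 and 27.4 in old macrophages 1, 7, 12 and 17. Young nonmacrophages 2, 5, 6 and 14 had 6714, 0, 10201 and 5061, and both young macrophage libraries were at 0. Against 3 reads per library, young nonmacrophages were at least 1260-fold higher, or at least 1690-fold without nonmacrophage 5. The pair rose and fell together across the nonmacrophage libraries. The ratio of S100a9 to S100a8 reads there ran from 0.61 (95% interval 0.586 to 0.635) in young nonmacrophage 2 to 1.28 (1.23 to 1.34) in auditory nerve nonmacrophages, leaving out young nonmacrophage 5 with 1 read.

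The specific granule pair was less even. In the sorted nonmacrophage libraries with reads of both, Ngp had 1.38 (95% interval 1.33 to 1.44) to 2.57 (2.29 to 2.89) reads for each Ltf read in 7 of 9, but 9.77 (6.51 to 15.2) in old nonmacrophage 11 and 11.5 (10.3 to 13) in young nonmacrophage 2. The intervals of these 2 libraries lay wholly above those of the other 7. They were not alike in the other granule genes: old nonmacrophage 11 had 14.5 normalized reads of Camp and 92.9 of Mmp8, and young nonmacrophage 2 had 2052 of Camp and no Mmp8 read.

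Retnlg stood at 269, 220, 491 and 96 in old nonmacrophages 10, 11, 18 and 19 and at 0, 0.544, 0 and 12.2 in old macrophages 1, 7, 12 and 17. Young nonmacrophages 2, 5, 6 and 14 had 1657, 0, 2475 and 636, and young macrophages 9 and 15 had 0 and 1.13. Old macrophage 17 was the highest of its group for S100a8, S100a9, Ngp and Retnlg alike.

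Per kilobase of exon, the cytosolic pair led in whole-cochlea nonmacrophages. Exon lengths join the exons of all annotated transcripts of a gene, 2.62 kb for Lcn2 and 0.522 kb for S100a9. A gene with long joined exons may be understated, so the order depends on the annotation. The young means were 10638 normalized reads per kb for S100a8 and 10525 for S100a9, then 3705 for Ngp, 2016 for Camp, 2010 for Retnlg, 1306 for Elane, 696 for Lcn2, 378 for Ltf and 124 for Mmp8. The old means were 2177 for S100a9, 1823 for S100a8, 1045 for Ngp, 454 for Retnlg, 375 for Camp, 228 for Ltf, 195 for Lcn2, 149 for Elane and 77.4 for Mmp8. Each gap between neighbours in these orders was smaller than the SD of the higher gene over its 4 libraries. The young means without replicate 5 were 14184 for S100a8, 14033 for S100a9, 4941 for Ngp, 2685 for Camp, 2680 for Retnlg, 1741 for Elane, 915 for Lcn2, 504 for Ltf and 165 for Mmp8, the same order. The steps from S100a9 to Ngp and from Ngp to Camp were then larger than the SD of the higher gene over 3 libraries (5026 and 1656).

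The sort comparison was tested with limma on log2(value + 1) over the 14 libraries sorted from whole cochleae, with 1 shared estimate of spread and Benjamini-Hochberg adjustment over 18441 genes. Over both ages, 7 of the 9 genes were lower in macrophages and none was higher, where 25.7% of all genes tested were called lower and 13.6% higher (39.3% either way). The median log2 difference was -7.34 over the 9 genes and -0.50 over all genes. Log2 differences were -7.34 for Lcn2 (SE 1.13, limma adjusted p = 0.00021), -7.48 for Camp (SE 1.36, adjusted p = 8e-04) and -9.03 for Ngp (SE 1.81, adjusted p = 0.0016). They were -8.81 for S100a9, -7.02 for Retnlg, -7.24 for Ltf and -7.41 for S100a8 (limma adjusted p = 0.0024, 0.0033, 0.0043 and 0.0046). Elane had a log2 difference of -3.37 (SE 1.97, adjusted p = 0.19) and Mmp8 of -1.32 (SE 1.79, adjusted p = 0.57). Young nonmacrophage 5 was picked by its low values of these genes, so the values without it are descriptions. The 7 then had -7.82 (Lcn2) to -10.59 (Ngp), and Elane was called as well (-4.64, SE 1.53, limma adjusted p = 0.032), while Mmp8 was not (-2.09, adjusted p = 0.35). With library quality weights 0 of the 7 calls held, while edgeR and DESeq2 on the recovered reads each called 7. Whether the calls over all genes changed as well under these settings is not given here.

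In the old cochlea the same 7 genes were lower in macrophages, where 9.36% of all genes were called lower and 9.25% higher (18.6% either way). Their groups did not overlap, which held for 30% of all genes in that direction. The log2 differences ran from -4.99 for Lcn2 (SE 1.43, adjusted p = 0.028) to -8.68 for Ngp (SE 2.29, adjusted p = 0.018), and S100a8 had -6.80 (SE 2.20, adjusted p = 0.047). Elane had -4.45 (SE 2.49, adjusted p = 0.26) and Mmp8 -2.07 (SE 2.27, adjusted p = 0.62). The count of 7 changed when single libraries were left out. Without old macrophages 1, 7, 12 and 17 it was 1, 2, 1 and 4, and without old nonmacrophages 10, 11, 18 and 19 it was 0, 4, 0 and 1. It was 3 with a pseudocount of 0.1. The share of all genes called is not given for these or the other alternative fits, so a fall in their counts is not read as particular to the 9 genes.

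In the young cochlea 6 genes were lower in macrophages, where 22.3% of all genes were called lower and 9.18% higher (31.5% either way). Groups that did not overlap were found for 2 of the 9 genes, against 18.6% of all genes in that direction. Without young nonmacrophage 5 it was 7, all but Elane and Mmp8, against 20.9% of all genes. Without young macrophage 15 it was 3, against 34.9%. Log2 differences were -9.69 for Lcn2 (SE 1.75, adjusted p = 0.00099), -8.91 for Camp (SE 2.11, adjusted p = 0.0065) and -9.58 for S100a9 (SE 2.90, adjusted p = 0.024). For Ngp, Retnlg and S100a8 they were -9.38, -7.28 and -8.02 (limma adjusted p = 0.023, 0.037 and 0.038). Ltf had a log2 difference of -7.09 (SE 2.60, adjusted p = 0.053), Elane of -2.29 (SE 3.06, adjusted p = 0.6) and Mmp8 of -0.57 (SE 2.78, adjusted p = 0.92). Without young macrophages 9 and 15 the count was 2 and 3, and without young nonmacrophages 2, 6 and 14 it was 3, 2 and 2. It was 7 without young nonmacrophage 5, where Ltf was called too (-9.70, SE 1.57, limma adjusted p = 0.00064) and the others ran from -9.88 for Retnlg to -12.78 for S100a9. It was 1 when only the 6 young libraries were fitted and 0 with library quality weights. In the table the authors deposited, 7 of the genes had an adjusted p under 0.05 in this comparison, and Elane (0.541) and Mmp8 (0.682) did not.

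**Figure D2:**
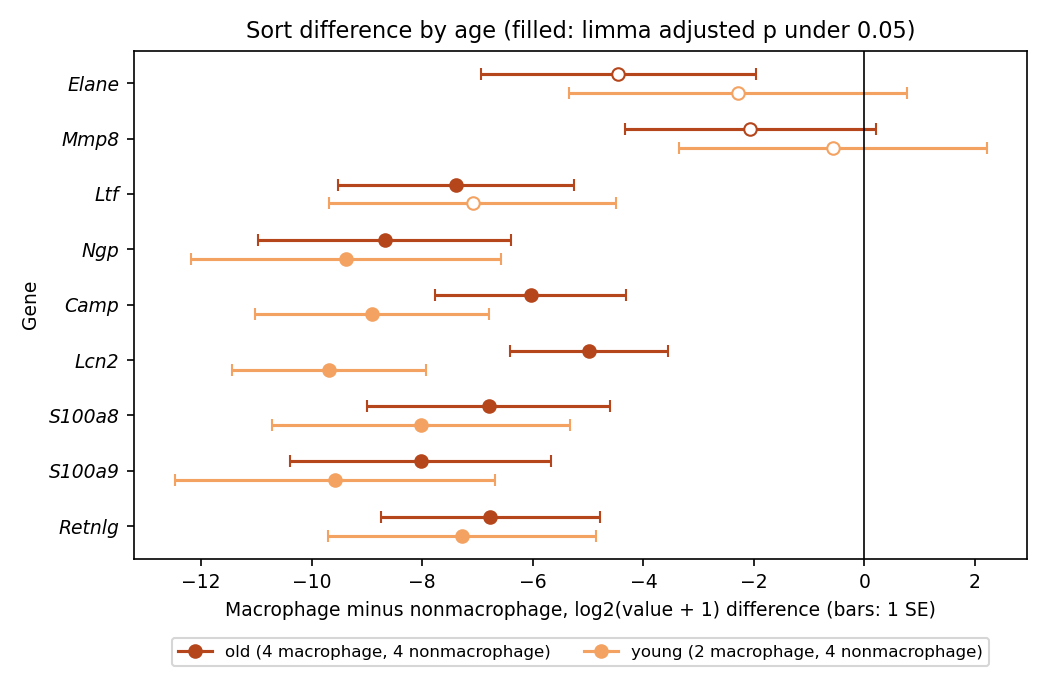
Difference of each gene between macrophages and nonmacrophages (x axis, log2(value + 1) scale, macrophage minus nonmacrophage) in old and young cochleae, with bars of 1 SE from limma and filled points for adjusted p under 0.05. All 18 points lie below 0, and the 2 uppermost genes, Elane and Mmp8, lie nearest to it and are open at both ages.

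The age comparison in nonmacrophages called none of the 9 genes by limma, edgeR or DESeq2, and none had an unadjusted limma p under 0.05. Of all genes 1.64% were called higher and 0.0813% lower in old nonmacrophages (1.72% either way). The old and young values overlapped for all 9 genes, whereas in 12% of all genes the old group lay wholly above the young and in 5.39% wholly below. Without young nonmacrophage 5, 6 of the 9 (S100a8, S100a9, Ngp, Camp, Elane and Retnlg) lay wholly below in the old, against 7.55% of all genes. Group means were nonetheless higher in the young for every one of the 9 genes, from 1.6-fold for Mmp8 and 1.66-fold for Ltf to 5.84-fold for S100a8 and 8.78-fold for Elane, and from 2.13-fold for Mmp8 to 11.7-fold for Elane without young nonmacrophage 5. On the log2(value + 1) scale the old minus young differences were -0.11 for S100a8 (SE 2.20), 0.26 for S100a9 (SE 2.36), 0.26 for Ngp (SE 2.29) and 0.32 for Ltf (SE 2.13). They were -1.58 for Camp (SE 1.73), -0.56 for Elane (SE 2.49), 2.57 for Mmp8 (SE 2.27), 0.03 for Retnlg (SE 1.98) and -1.18 for Lcn2 (SE 1.43).

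The near-zero log2 differences beside higher young means rested on 1 library. Without young nonmacrophage 5 the old minus young differences were -3.10 for S100a8 (SE 0.95, limma adjusted p = 0.11), -3.65 for Camp (SE 1.11, adjusted p = 0.11) and -2.87 for Ngp (SE 0.96, adjusted p = 0.12). S100a9, Retnlg, Ltf, Elane and Lcn2 then had -2.93, -2.58, -2.29, -3.11 and -2.15 (limma adjusted p = 0.13, 0.14, 0.3, 0.36 and 0.36), and Mmp8 had 1.04. None was called. The other 3 young libraries held 5321 to 13203 normalized reads of S100a8 against 595 to 2550 in the old, and 1799 to 2255 of Camp against 14.5 to 541. For Ltf the ranges overlapped, at 542 to 3118 against 17.9 to 2225.

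Young nonmacrophage 5 differed from the other libraries of its group in some marrow and blood genes and not in others. Its 10 erythroid genes summed to 423001 normalized reads, between 494024 in replicate 6 and 13706 in replicate 14, both of which held all 9 granule and neutrophil genes. Its 8 osteoblast genes summed to 20235, within the range of the group (18359 to 36205). Prg2, the main basic protein of eosinophil granules, was at 0 there and at 5667 to 17838 in the other 3. The part of these differences in the age comparison was not tested.

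In macrophages, 0 of the 9 genes differed by age in limma, none at an unadjusted p under 0.05, and 0 in edgeR, where 24.1% of all genes were higher and 5.57% lower in old macrophages by limma (29.7% either way). Old and young macrophages overlapped for all 9 genes, against 31.7% of all genes with the old group wholly higher and 13.4% wholly lower. Without old macrophage 1 or 12 or young macrophage 9 or 15, 2, 1, 3 and 3 of the 9 genes did not overlap. The old group then lay wholly higher in 34.3, 33.1, 44.2 and 51.2% of all genes and wholly lower in 14, 13.8, 28.6 and 27.4%. DESeq2 called 1, Lcn2. Old macrophages 1, 7, 12 and 17 had 8, 195, 0 and 42 recovered Lcn2 reads, and the young libraries had none. The log2 difference was 3.52 (SE 1.75, limma adjusted p = 0.14), with adjusted p = 0.11 by edgeR and 0.0066 by DESeq2, and from 0.052 to 1 over the other settings and left-out libraries. The authors' deposited table gives Lcn2 an adjusted p of 0.00447 and a fold change of 132 here. Old macrophage 12, the deepest library of all with 71.6 M reads, had no Lcn2 read.

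The interaction of age and sort called 0 of the 9 genes by limma and edgeR and 0 at an unadjusted limma p under 0.05, against 7.94% of all genes by limma (6.98% higher, 0.954% lower). DESeq2 called 1, Lcn2 (log2 8.86, adjusted p = 0.0054). By limma its interaction was 4.71 (SE 2.26, adjusted p = 0.24), and its adjusted p ran from 0.11 to 1 over the other settings and left-out libraries. Limma again called none without young nonmacrophage 5. A difference between the ages in the sort contrast was therefore not shown for the other 8 genes by any of the 3 tools.

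The auditory nerve and the lateral wall, had 1 library per sort each and so no replicate check. In lateral wall nonmacrophages Ngp stood at 40426 normalized reads, Ltf at 26559, S100a9 at 23403, S100a8 at 18610, Elane at 10699, Lcn2 at 7857, Camp at 6235, Mmp8 at 6116 and Retnlg at 3473. Each of these was the highest value of its gene among all 19 libraries. Auditory nerve nonmacrophages were above every whole-cochlea library for Ngp (25265), Ltf (12130), Camp (3289) and Mmp8 (1027), and within the range of the young whole-cochlea nonmacrophages for S100a8 (5436), S100a9 (6980), Elane (841), Retnlg (594) and Lcn2 (2494). For Retnlg this held only through replicate 5 at 0, since replicates 2, 6 and 14 had 1657, 2475 and 636. Ngp took 43.5% of the 9-gene sum there, against 28.2% in the lateral wall and 16.4 to 20.1% in the young whole-cochlea nonmacrophages other than replicate 5. The unsorted young cochlea held all 9 genes, with 503 normalized reads of Ngp, 287 of S100a8, 258 of S100a9, 255 of Elane, 176 of Ltf, 96.3 of Camp, 62.7 of Lcn2, 52 of Mmp8 and 26 of Retnlg.

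Macrophages of the 2 dissected regions differed from each other in which of the genes they held. Lateral wall macrophages had 2772 normalized reads of Ngp, 2075 of S100a9, 1553 of S100a8 and 1052 of Camp, but none of Ltf and 19.9 of Retnlg. The nonmacrophage library was 14.6-fold higher for Ngp (95% interval 13.9 to 15.3, counting error only), at least 5780-fold higher for Ltf and 174-fold higher for Retnlg (102 to 328). Auditory nerve macrophages had 3119 normalized reads of Elane, 448 of Mmp8, 301 of S100a8 and 99.1 of S100a9, with 8.26 of Ngp and none of Ltf, Camp or Retnlg. Elane was the only one of the 9 genes that was higher in a macrophage library than in its nonmacrophage partner. The nonmacrophage to macrophage ratio in the auditory nerve was 0.269 (0.245 to 0.296) for Elane and 3060 (1310 to 9420) for Ngp.

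In 4 of the 8 macrophage libraries Elane and Mmp8 made up most of the 9-gene reads. They took 88.3% of the 9-gene reads in auditory nerve macrophages (Wilson interval 86.9 to 89.5%), 97.7% in young macrophage 15 (96.4 to 98.6%), 95.6% in old macrophage 12 (93.7 to 96.9%) and 89.9% in old macrophage 1 (84.2 to 93.7%). In the 9 sorted nonmacrophage libraries other than young nonmacrophage 5 they took 2.85 to 18%. In the other macrophage libraries they took 41.9% (lateral wall), 30.2% (old 7), 12.9% (old 17) and 50% of only 2 reads (young 9). The 2 genes could differ within a library. Old macrophages 1 and 7 had 142 and 98 Mmp8 reads and no Elane read, and old macrophage 12 had 544 Elane and 63 Mmp8 reads.

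Prtn3, the azurophil partner and chromosomal neighbour of Elane, was also high where macrophages held much Elane. It stood at 1664 normalized reads in auditory nerve macrophages, 2261 in lateral wall macrophages, 795 in young macrophage 15 and 151 in old macrophage 12, the 4 macrophage libraries with the most Elane. In old macrophages 7 and 17, with 0 and 8 Elane reads, it stood at 28.8 and 26.2, and in young macrophage 9 and old macrophage 1 it was at 0. Where both genes had reads, the ratio of Prtn3 to Elane reads ran from 0.124 (0.11 to 0.141) in young nonmacrophage 6 to 5.38 (2.5 to 13.2) in old macrophage 17. Ms4a3, a membrane protein gene of granulocyte and monocyte progenitors, stood at 360, 830, 132 and 11.5 in the same 4 libraries and at 0 in the other 4 macrophage libraries. Prss57, the remaining azurophil gene of the list, did not follow Elane. It stood at 841 in young macrophage 9, where Elane was at 1.76, and at 0 in young macrophage 15 and old macrophage 12. The ratio of Elane to Ngp reads was 378 (162 to 1160) in auditory nerve macrophages and 181 (61.7 to 882) in old macrophage 12. In auditory nerve nonmacrophages it was 0.0333 (0.0306 to 0.0361).

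**Figure D3:**
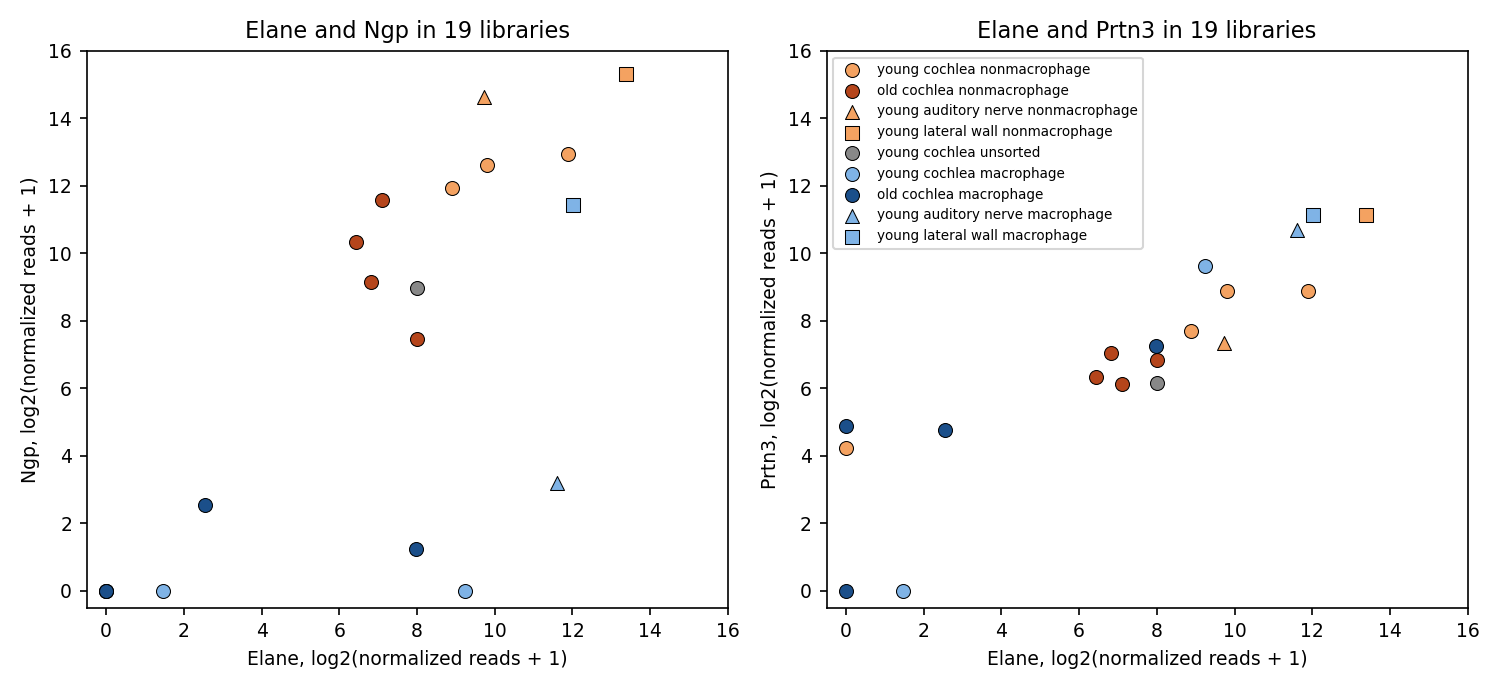
Elane (x axis) against Ngp (left) and Prtn3 (right) in each of 19 libraries, all as log2(normalized reads + 1), with colour for sort and age and shape for region. In the Ngp panel the macrophage points lie at 3.21 or lower, except lateral wall macrophages at 11.44, and in the Prtn3 panel the 4 macrophage libraries with the most Elane are also the 4 highest in Prtn3. At Elane 0 the points of old macrophages 1 and 7 and young nonmacrophage 5 lie on each other in the Ngp panel.

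Basophil and monocyte genes were high in 3 of the 4 macrophage libraries with the most Elane. Mcpt8 and Prss34, proteases of basophils, stood at 902 and 2357 normalized reads in auditory nerve macrophages, at 2100 and 3579 in lateral wall macrophages and at 4374 and 13634 in young macrophage 15. Both were at 0 in the other 5 macrophage libraries, old macrophage 12 with its 251 of Elane included. The 7 monocyte genes summed to 84164 in auditory nerve and 102215 in lateral wall macrophages, against 5387 to 12405 in old and 10096 to 35342 in young whole-cochlea macrophages. T and NK cell genes had another order. They summed to 10909 in young macrophage 9, against 2014 in auditory nerve macrophages, 2872 in lateral wall macrophages and 2453 in young macrophage 15. The part of these cells in the level of Elane was not tested.

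Across all 19 libraries most of the genes rose and fell together. Pearson's r between a gene and the mean of the other members, on log2(value + 1), was 0.98 for S100a8 and Ngp, 0.97 for S100a9, 0.93 for Camp and Retnlg, 0.86 for Ltf and 0.83 for Lcn2. It was 0.69 for Elane and 0.54 for Mmp8, and 0.65 between these 2 genes. Without young nonmacrophage 5 the values for the 9 genes were 0.49 (Mmp8) to 0.98 (Ngp). These are descriptions over libraries that share their sort, region and depth class. Genes other than the members whose pattern was most like the members' mean were Wfdc21 (r = 0.97), Podn (0.91), Prg2 (0.88), Nox4 (0.86), Bglap2 (0.85), Cebpe (0.84), Mylk3 (0.84) and Vcl (0.84), out of 15048 genes compared. By Spearman's rho they ranked 1, 4, 2, 10, 11, 19, 40 and 136 in the same order, and Epx ranked 3. Podn, Nox4, Mylk3 and Vcl are in none of the marker lists used here. Wfdc21 encodes a secreted protein of the whey acidic protein family, Prg2 an eosinophil granule protein, Bglap2 an osteocalcin of osteoblasts and Cebpe a transcription factor of late granulocyte maturation. Bglap2 has a near-identical neighbour, and its value is uncertain.

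Of the 9 genes, 5 lie on 2 stretches of the genome. S100a8 (chr3:90668978-90670035, plus strand) and S100a9 (chr3:90692632-90695721, minus strand) are 22.6 kb apart in mm10. Camp (chr9:109847379-109849617), Ngp (chr9:110419747-110423012) and Ltf (chr9:111019271-111042767) follow each other at distances of 570 and 596 kb. The others are Mmp8 (chr9:7558456-7568485), Elane (chr10:79886247-79888215), Retnlg (chr16:48872621-48874496) and Lcn2 (chr2:32384633-32388252). Prtn3 ends 3.07 kb before Elane begins. No annotated gene overlaps the exons of the 9 genes.

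Since 7 of the genes moved together, the 250 bases before each RefSeq start were searched for the letters that granulocyte transcription factors are known to prefer, in RefSeq promoters of GRCm38.p6, which hold all 9 genes. C/EBP factors, among them the product of Cebpe, bind sites of the form TTGCNNAA. These letters, on either strand, stood before 6 of the 9 genes and in 9.56% of 32851 promoters. The matches are shown on the gene's strand with the matched letters in capitals, to let the sites be compared between genes.
S100a9 (chr3:90695939-90695968): ggtaggctgtcTTGCTTAAgatttgggcgg
Ngp (chr9:110419659-110419688): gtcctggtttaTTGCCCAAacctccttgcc
Ngp, nearer match (chr9:110419786-110419815): accggcagttcTTGGGCAAggcagtctcaa
Ltf (chr9:111019206-111019235): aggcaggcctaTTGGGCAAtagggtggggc
Mmp8 (chr9:7558399-7558428): ttaggcagaagTTGCTCAAgatgtagcttt
Retnlg (chr16:48872358-48872387): agctTTCTGCAAggcattccaggcacctcc
Lcn2 (chr2:32387937-32387966): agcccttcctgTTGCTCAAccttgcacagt

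Counted from the RefSeq starts, the first matched base lay 236 bases before the start of S100a9, 138 and 11 before Ngp, 75 before Ltf, 19 before Mmp8, 246 before Retnlg and 216 before Lcn2. These starts are not the gene bounds given for the 9 genes, which are from GENCODE M21 and cover every annotated transcript: the RefSeq start lies 61 bases inside that bound for Ngp and 513 for Lcn2. By GENCODE the nearer Ngp match and the Lcn2 match lie in an exon of their gene, and the other 5 matches lie before the gene. Both Ngp and Ltf carry the reverse form TTGGGCAA, and Mmp8 and Lcn2 share TTGCTCAA. The search found no match before S100a8, Camp or Elane, which says only that these letters are not in that window. Matches stood before genes called in the sort comparison and before Mmp8, which was not called. The part of these sites in the levels of the genes was not tested. The PU.1 core GAGGAA stood before 5 of the 9 genes and in 23.3% of promoters, the RUNX letters TGTGGT before 1 and in 14%, and the TATA letters TATAAA, on the gene's strand only, before 1 and in 7.59%. A match is a description of letters and was not tied to binding here.

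Other genes of the neutrophil were called in both directions. Over both ages 13.6% of all genes were called higher in macrophages and 25.7% lower. Counts in these small lists that lie near such shares are not read as a result. Of 3 further azurophil genes tested over both ages none was called, and Prtn3 had a log2 difference of -2.48 (SE 1.51, limma adjusted p = 0.2). Of 6 further specific and gelatinase granule genes 2 were higher in macrophages and 2 lower. The higher genes were Cybb, the oxidase subunit that macrophages also use (7.28, adjusted p = 2.8e-05), and the gelatinase gene Mmp9 (2.37, adjusted p = 0.015). The lower genes were Pglyrp1, which encodes a peptidoglycan-binding protein (-1.56, adjusted p = 0.047), and Itgb2l (-3.15, adjusted p = 0.041), the latter outside the fixed rule and chosen after its values were seen. Hp, the haptoglobin gene, had -1.21 (SE 1.70, adjusted p = 0.59).

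Among 4 further cytosolic and secreted genes, Wfdc21 was lower in macrophages (-5.34, SE 1.17, limma adjusted p = 0.003) and Ifitm6 higher (3.49, SE 1.26, adjusted p = 0.042). The shares of all genes called were 25.7% lower and 13.6% higher. Wfdc21 stood at 46.7, 11, 97.3 and 18.7 normalized reads in old nonmacrophages 10, 11, 18 and 19 and at 235, 0, 370 and 111 in young nonmacrophages 2, 5, 6 and 14. In whole-cochlea macrophages it had 1 read in all, in old macrophage 7. Like most of the 9 genes, it had no read in young nonmacrophage 5.

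Of 8 surface genes of mature neutrophils 2 were higher in macrophages, 1 was lower and 5 were not called. With 13.6% of all genes called higher and 25.7% lower, this count is not read as a result about the list. Csf3r, the receptor for the growth factor G-CSF, and Clec4d, a C-type lectin receptor of myeloid cells, were higher (5.02 and 5.94, limma adjusted p = 0.0021 and 6.2e-05). Mcemp1 (1.72) and Trem1 (-0.04) were not called (adjusted p = 0.32 and 0.98). Ly6g, the surface marker by which mouse neutrophils are usually recognised, was lower (-2.92, SE 0.99, adjusted p = 0.033) and was added after its values were seen. Ly6g stood at 4.92, 2.75, 17.8 and 12.1 in old nonmacrophages 10, 11, 18 and 19, at 0, 0, 78.3 and 36.4 in young nonmacrophages 2, 5, 6 and 14, and at 621 in lateral wall nonmacrophages. Whole-cochlea macrophages had 1 Ly6g read in all.

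Of 6 regulators of granulocyte development, Spi1 (the gene of PU.1), Csf3r and Cebpa were higher in macrophages (6.63, 5.02 and 2.37, limma adjusted p = 0.00054, 0.0021 and 0.0047). Cebpe was lower (-2.98, SE 0.93, adjusted p = 0.022) and at 0 in all 6 whole-cochlea macrophage libraries. Gfi1, a repressor that granulocyte progenitors need and that hair cells also use, had -2.76 (SE 1.20, adjusted p = 0.083). Of 6 receptors for the genes' products, Tlr4 and Cd36, both receptors for calprotectin, and Lrp2, a receptor for lipocalin 2, were higher in macrophages (2.37, 4.01 and 1.21, limma adjusted p = 2.1e-05, 2.8e-05 and 0.033). Lrp1, a receptor for lactoferrin, and Ager, another receptor for S100 proteins, were lower (-2.33 and -4.06, adjusted p = 0.0017 and 0.01), and Slc22a17 was not called (0.07, adjusted p = 0.77). Beside the counts of these lists, 13.6% of all genes were called higher and 25.7% lower.

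Some marker lists of other cells of bone, marrow and blood had a larger share called lower in macrophages than the 25.7% of all genes. Others did not, and 13.6% of all genes were called higher. Counts near these shares in lists this small are not read as a result. All 8 osteoblast genes were lower in macrophages over both ages (median log2 difference -6.44, limma). Their sum was 9398 to 13546 normalized reads in old nonmacrophages, 18359 to 36205 in young nonmacrophages, 1347 to 3667 in old and 1213 to 6141 in young macrophages, and 119987 in lateral wall nonmacrophages. Of 10 erythroid genes 7 were lower in macrophages and 1 higher, with sums of 14201 to 28076 in old and 13706 to 1785772 in young nonmacrophages and 1874 to 6773 in old and 20057 to 26345 in young macrophages, so that young macrophages lay within the old nonmacrophage range. Of 6 mast cell, basophil and eosinophil genes 3 were lower, namely Prg2, Epx and Ear1. Of these, Epx was at 0 in all 6 whole-cochlea macrophage libraries, and Prg2 had 1 read there. Prg2 was also at 0 in old nonmacrophage 11, the old nonmacrophage library with the lowest sum of the 9 genes. Of 12 B lineage genes 5 were lower and 2 higher, and of 8 megakaryocyte and platelet genes 3 were lower and 1 higher. Of 7 monocyte genes 3 were higher and 1 lower (median 1.67), of 5 osteoclast genes 2 were higher and 1 lower (0.05), and of 7 T and NK cell genes none was called (1.49). Lists of cells resident in the cochlea were lower too, with 6 of 6 endothelial genes (median -2.57), 6 of 6 Schwann cell and glia genes (-3.21) and 5 of 6 fibrocyte and matrix genes (-3.18). The part of these cells in the sort difference of the granule and neutrophil genes was not tested.

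**Figure D4:**
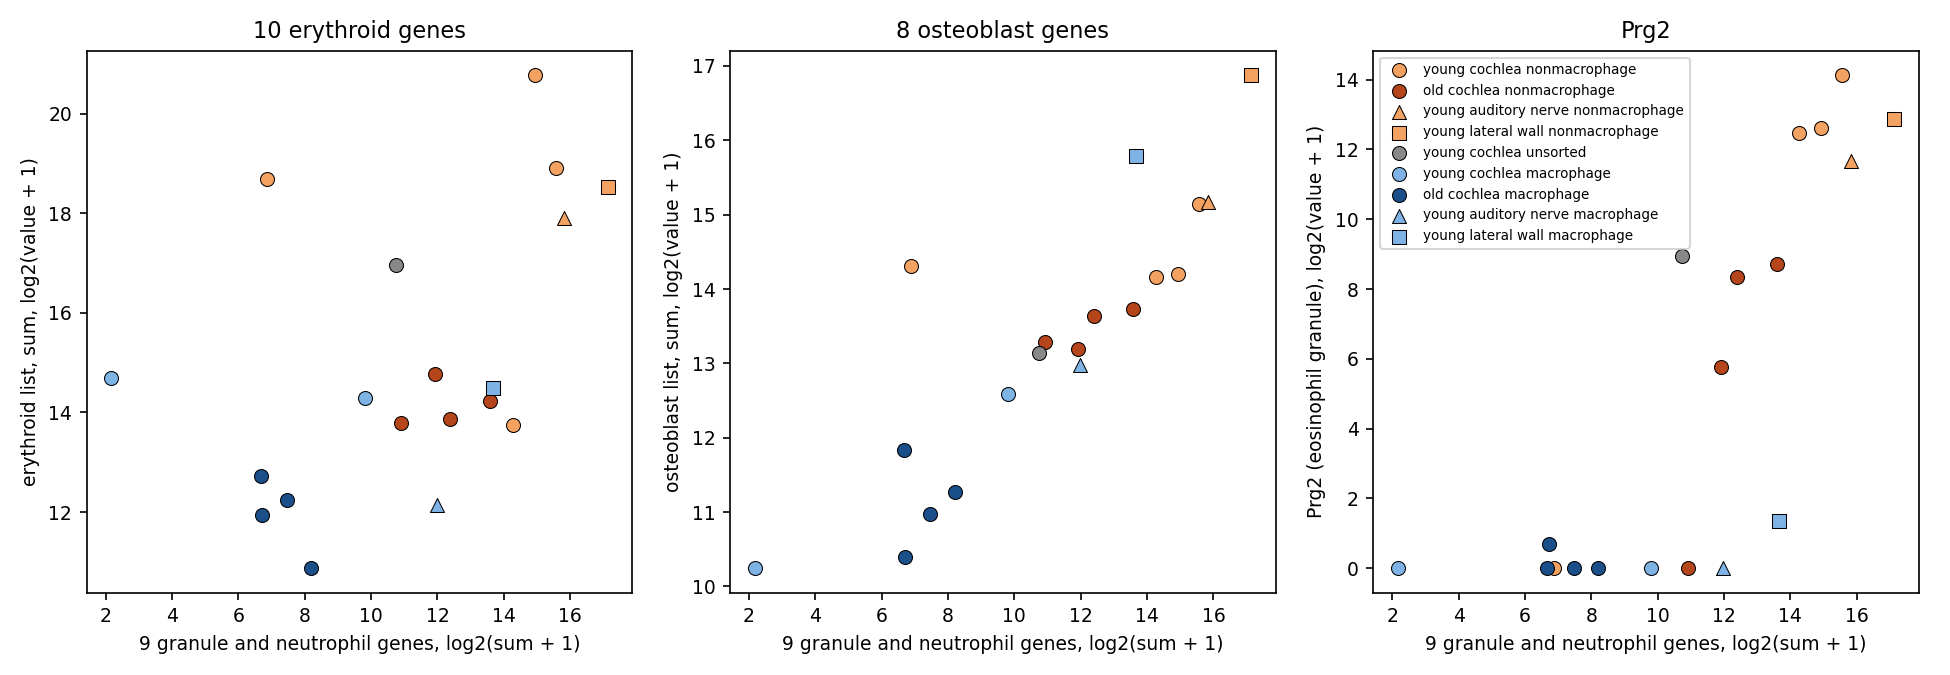
Sum of the 9 genes in each library (x axis, log2(sum + 1)) against the sum of 10 erythroid genes, the sum of 8 osteoblast genes and the level of Prg2 (y axes, log2(value + 1), each with its own range). The osteoblast sum rises with the 9 genes over most libraries, whereas young nonmacrophage 5, the lone orange circle at the left, has high erythroid and osteoblast sums with few reads of the 9 genes and none of Prg2.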

How the data were processed

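RNA was sequenced from 19 libraries made with SMARTer Ultra and Nextera XT, kits that do not mark strand, per the labels' protocols, which also say that poor RNA was left out and that part of the samples had a second sequencing run. In the submitters' processing notes stand mm10, TopHat2, Partek and DESeq2, without versions, and the roles of these tools are not given in the sources used here. The deposited table holds 1 signal value per gene and library, the reads of a gene divided by a library factor, judged per the file headers and the values. Steps between low values gave back whole reads: 99.89% of values were whole within 0.1 read, and 100% of those under 10000 reads. The adjusted p-value and the signed fold score of the authors' own comparisons, deposited in the same table, were copied as given.

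The main test was limma 3.58.1 (trend and robust variance, R 4.3.3) on log2(value + 1) over the 14 libraries sorted from whole cochleae, 1 mean for each of 4 groups, for the 18441 genes with 1 normalized read or more in 2 or more libraries, with Benjamini-Hochberg adjustment at 0.05. On this scale the change of low genes is understated. The step was tested on simulated data, with the spread of old nonmacrophages and with smaller changes in well-read genes. That test does not cover genes near 0 in macrophages or a library that stands apart. Alternatives were edgeR 4.0.16 and DESeq2 1.42.0 on the recovered read counts, which come from the authors' deposited values, scaling to a common total, quantile normalization, weights by library quality, other filters and pseudocounts, fits of the compared groups alone, and leaving out each library. Means, overlaps and correlations without single libraries were added after the data were seen. Where a group had no read, a fold is a lower bound against 3 reads per library, rounded down. Intervals of single-library ratios are exact at 95%, those of shares are Wilson intervals, and neither covers more than counting error, as there were no molecular identifiers.

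The 10 genes and the lists were chosen with earlier results of these data known. Named genes were the 10, the 4 most abundant of each granule, neutrophil, regulator and receptor list, and the 8 genes most like the members' mean. Ly6g, Itgb2l, Tlr4 and Ager fell outside that rule by abundance and were named because they were called, and marker genes of other cells were named for the same reason after their values were seen. Of the 18639 symbols, 18294 were found in GENCODE M21, which gave positions. Mpo and some list genes, such as Ctsg, Chil3 and Cd177, were not analysed here.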

Additional observations from a re-analysis of the deposited data

Results flagged for a closer look

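In 27 groups of 4 libraries, 1 for each gene and each of the groups of old macrophages, old nonmacrophages and young nonmacrophages, a library was looked for whose gap to the nearest other, divided by the range of the group on log2(value + 1), was above Dixon's critical value of 0.829. This was met in 5, and chance alone gives about 1 in 20. Young nonmacrophage 5 lay far below its group for S100a8 (0.89), S100a9 (0.92), Ngp (0.92) and Camp (0.96), which are 4 genes of 1 library and so not separate events. Old macrophage 17 lay above its group for Retnlg (0.83), with 12.2 normalized reads against 0 to 0.544 in the others.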

How the results depend on the processing

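A count of 0 allows up to 3 reads, which are 1.38 to 1.92 normalized reads in old and 3.39 to 5.27 in young whole-cochlea macrophages, where many of the 9 genes were at or near 0. The young macrophage group had 2 libraries and shared its spread with the other groups. Each library has its own replicate number, so the numbers cannot show which sorted fractions came from 1 mouse. The tests treated all libraries as independent, and no paired analysis was done.

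Of the 9 genes, 7, 7, 6, 0, 0 and 0 were called over both ages, in the old and young sort, between old and young macrophages and nonmacrophages, and in the interaction. DESeq2 gave 1 between old and young macrophages and 1 in the interaction (Lcn2 in both), library quality weights gave 0 over both ages and 0 in the young sort, a pseudocount of 0.1 gave 3 in the old sort, and fitting only the groups compared gave 1 in the young sort. With 1 library left out the old sort gave 0 to 7 and the young sort 2 to 7. Of the 9 genes, 7, 2, 0 and 0 had groups that did not overlap in the old and young sort and between old and young macrophages and nonmacrophages, and with 1 library left out 7 to 8, 2 to 7, 0 to 3 and 0 to 6. Of all genes, 31.3 to 33.5% then lay wholly lower in the old sort, 20.3 to 34.9% in the young sort and 6.03 to 14.4% in old nonmacrophages. Between old and young macrophages 33.1 to 51.2% lay wholly higher and 13.8 to 28.6% wholly lower. The share of all genes called under these settings is not given here, and the cause of these changes was not tested.

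Direction held for all 9 genes in the old sort under every setting and left-out library. In the young sort quantile normalization gave Elane 0.46 and Mmp8 0.39, and leaving out 1 library gave -6.18 to 1.60 for Elane and -4.61 to 3.48 for Mmp8. Over both ages Mmp8 ran from -3.34 to 0.70 with 1 library left out.

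The differences between old and young nonmacrophages, none of them called, changed sign most. S100a9, Ngp, Ltf, Mmp8 and Retnlg had -2.35, -1.90, -0.80, -0.74 and -2.22 by edgeR and -2.28, -1.84, -0.74, -0.69 and -2.16 by DESeq2. S100a9, Ngp, Ltf and Retnlg had -0.01, -0.13, -0.50 and -0.74 with quantile normalization and -0.55, -0.55, -0.36 and -0.74 with a pseudocount of 10. S100a8 had 0.02 with a common total, S100a8, Camp and Elane had 2.30, 0.32 and 1.27 with library quality weights, and S100a8 and Elane had 0.06 and 0.26 with a pseudocount of 0.1. With 1 library left out the ranges were -3.10 to 1.05 for S100a8, -2.93 to 1.51 for S100a9, -2.87 to 1.45 for Ngp, -2.29 to 1.62 for Ltf, -3.11 to 0.85 for Elane and -2.58 to 1.18 for Retnlg.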
